A study of Mus musculus with 8 samples.

Results

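The 8 genes described here carry the natriuretic peptide and cyclic GMP (cGMP) signal in the heart: Npr1, Npr2 and Npr3, Corin, Gucy1a1, Gucy1a2, Gucy1b1 and Prkg1. They were chosen by name, as the receptors, the activating protease, the soluble cyclase subunits and the kinase of this pathway. All 8 were found among the 32285 genes of the libraries, and their levels were read in 34659 nuclei of adult mouse heart. The question was in which cell types each gene was detected, and whether its level differed between libraries labelled female and male.

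The atrial and B-type natriuretic peptides are hormones that cardiomyocytes release when the heart wall is stretched. The precursor of the atrial peptide, the product of Nppa, is cut to its active form by corin, a protease anchored in the cell membrane. The atrial, B-type and C-type peptides act through NPR1 (also called guanylyl cyclase A) and NPR2 (guanylyl cyclase B), whose intracellular part makes cGMP. NPR3 binds the same peptides and removes them from the circulation without making cGMP. A separate, soluble guanylyl cyclase is an alpha and beta heterodimer that makes cGMP when nitric oxide binds its haem. Gucy1a1 and Gucy1a2 encode the alternative alpha subunits and Gucy1b1 encodes the beta subunit. Both sources of cGMP act on PKG, encoded by Prkg1, the kinase that relaxes smooth muscle.

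Nuclear RNA of adult hearts from mice of wild-type background was sequenced in 8 droplet libraries. The groups are nTg female, nTg male, Tg female and Tg male, where nTg is nontransgenic and Tg carries a transgene that expresses cyclin A2 (CCNA2) constitutively. The strain, the age of the animals and the promoter of the transgene are not given in the sources used here. The deposited matrices of nTg female 2, nTg male 1 and nTg male 2 held the same values as those of the Tg libraries with the same sex and number, and did not match their own barcode lists. They were not used, which left 5 libraries. Values for single libraries are given throughout in the order nTg female 1, then Tg female 1 and 2, then Tg male 1 and 2. The total depth ran from 25045167 to 38593706 unique molecular identifiers (UMIs) per library, and 144 of the cell barcodes occurred in more than 1 library. Ccna2 went against 2 labels: in cardiomyocytes its level was 446.9 CPM (counts per 1000000 UMIs) in the library labelled nTg female 1 and 0.466 CPM in that labelled Tg female 1, against 143.8 to 849.6 CPM in the other 3. All groups are those of the labels. If these 2 libraries were exchanged, both the Tg female arm of every sex comparison and the single nTg library would change. Xist and 4 Y-linked genes matched the sex label in all 5 libraries.

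Nuclei were clustered without the 8 genes, without the other pathway genes, and without Ccna2 and the sex-linked genes, so that the genes described had no part in the definition of a type. Of 24 clusters, 20 took the name of a cell type from fixed marker lists, which gave 13 types. The names mark resemblance to these lists. In 8 types every library had at least 50 nuclei: fibroblast (12644 nuclei), endothelial (7042), cardiomyocyte (6176), macrophage (2479), pericyte (2183), endocardial (1328), lymphatic endothelial (767) and smooth muscle (518). In 7 of these 8 types the summed level of its own markers was above that of every other marker list. In endocardial nuclei the endothelial list, at 6917 CPM, was above the endocardial list at 5809 CPM, and the endocardial list was at 120.3 to 167.1 CPM in endothelial nuclei. In all 8 types Tg female 2 had the lowest sum of the type's own markers. In fibroblasts this sum was 8683 CPM, against 12368 to 13275 CPM in the other libraries. Its median depth, 2140.5 UMIs per nucleus, was also the lowest. The part of this in the levels of the 8 genes was not tested. The level of a gene is the CPM of all UMIs summed over the nuclei of 1 type in 1 library, and means are given ± SD over the 5 libraries. UMI levels of nuclear RNA depend on gene length and intron content, so CPM is compared between types for 1 gene and never between genes. Fewer cells that express a gene and less RNA per cell cannot be told apart in such sums, and the share of nuclei with a UMI is given for that reason. The 4 unnamed clusters held 1008 nuclei.

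On the mm10 assembly the 8 genes lie on 6 chromosomes. Gucy1b1 (chr3:82032006-82074689) and Gucy1a1 (chr3:82092427-82145789) are neighbours on the minus strand of chromosome 3, with a gap of 17737 bases and 0 annotated genes between them. Npr1 (chr3:90450591-90465866) is on the same chromosome and strand. The remaining genes are Npr2 (chr4:43631935-43651244, plus strand), Npr3 (chr15:11839896-11907287, minus strand), Corin (chr5:72300025-72504473, minus strand), Gucy1a2 (chr9:3532778-3894736, plus strand) and Prkg1 (chr19:30564489-31765033, minus strand). Prkg1 spans 1200545 bases and Npr1 15276 bases, from first to last annotated base.

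The promoters of 4 genes are shown because the 2 neighbouring cyclase genes had nearly the same pattern across types, and because Npr3 and Corin each had most of their UMIs in a single type. Each sequence is 300 bases, from 250 bases before the transcript start to 50 after it, from RefSeq on GRCm38.p6, written 5′ to 3′ along the gene, and capitals mark CCAAT on either strand (read as ATTGG on the other).
Gucy1b1, chr3:82074662-82074961, minus strand: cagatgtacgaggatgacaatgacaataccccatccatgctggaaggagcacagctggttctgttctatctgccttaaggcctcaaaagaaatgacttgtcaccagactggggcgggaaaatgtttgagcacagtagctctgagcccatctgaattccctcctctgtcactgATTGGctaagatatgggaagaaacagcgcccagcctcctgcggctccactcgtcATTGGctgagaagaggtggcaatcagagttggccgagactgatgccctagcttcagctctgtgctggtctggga
Gucy1a1, chr3:82145601-82145900, minus strand: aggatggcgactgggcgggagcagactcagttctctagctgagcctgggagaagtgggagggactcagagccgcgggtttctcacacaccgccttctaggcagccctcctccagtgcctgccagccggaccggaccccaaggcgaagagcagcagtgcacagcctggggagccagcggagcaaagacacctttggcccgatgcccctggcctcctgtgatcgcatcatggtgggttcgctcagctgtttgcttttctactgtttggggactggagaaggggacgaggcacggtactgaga
Npr3, chr15:11907322-11907621, minus strand: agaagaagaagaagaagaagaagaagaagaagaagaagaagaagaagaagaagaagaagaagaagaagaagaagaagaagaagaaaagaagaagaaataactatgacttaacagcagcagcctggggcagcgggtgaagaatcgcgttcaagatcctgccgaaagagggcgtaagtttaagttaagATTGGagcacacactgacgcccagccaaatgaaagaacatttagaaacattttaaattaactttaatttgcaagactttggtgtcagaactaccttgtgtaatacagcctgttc
Corin, chr5:72504491-72504790, minus strand: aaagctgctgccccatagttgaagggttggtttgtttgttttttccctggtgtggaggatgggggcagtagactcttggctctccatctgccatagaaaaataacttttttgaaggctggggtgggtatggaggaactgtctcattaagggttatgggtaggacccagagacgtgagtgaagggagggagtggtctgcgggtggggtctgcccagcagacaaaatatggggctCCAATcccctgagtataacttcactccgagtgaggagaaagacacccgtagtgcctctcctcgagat
RefSeq lists 10 such windows for the 8 genes. CCAAT was found 2 times in the window of Gucy1b1 and 0 times in that of Gucy1a1, although the levels of the 2 genes followed each other closely. It was found 1 time each for Npr3, Corin, Npr1 and the first window of Prkg1, 2 times for Gucy1a2 and 0 times for Npr2, and 37.4% of all 32851 promoters of the same length hold it. TATAA on either strand was found 1 time, for Corin, and is held by 24.9% of all promoters. The CArG box, known as the binding motif of serum response factor, and the MEF2 box were found 0 times in the 10 windows, and are held by 1.63% and 3.19% of all promoters. These matches describe the letters in the window and were not tested for function.

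Npr1, the receptor of the atrial and B-type peptides, was highest in the endothelial types. Its level was 87.4 ± 19.3 CPM in endothelial, 62.1 ± 15.5 CPM in endocardial and 48.6 ± 11.2 CPM in lymphatic endothelial nuclei (n = 5 libraries each). The libraries of these neighbours in the order overlapped. In endothelial nuclei the 5 libraries gave 91.5, 104.2, 54.8, 99 and 87.3 CPM, with the lowest value in Tg female 2. Fibroblasts followed at 9.45 CPM, ranging from 8.51 to 12.1 CPM, which did not overlap with the lymphatic range of 34.7 to 60.9 CPM. Fibroblast Npr1 was 8.72% to 15.5% of its endothelial level, while the endothelial markers there were 1.28% to 3.64% of theirs. In pericytes Npr1 was at 1.51 CPM and in cardiomyocytes at 0.50 CPM, from 19 UMIs in all 5 libraries together. After each nucleus was thinned to 1000 UMIs, 8.86% of endothelial and 0.0335% of cardiomyocyte nuclei had an Npr1 UMI (means of 5 libraries; without thinning 17.2% and 0.331%).

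Npr1 also varied among endothelial clusters. Over all libraries its level was 140.4 CPM (exact Poisson interval 127.3 to 154.5) in the cluster led by Lhx6 and Col13a1, 88.9 CPM (82.5 to 95.7) in the cluster led by Ccdc85a and Car4, and 63.3 CPM (54.9 to 72.7) in the cluster led by Sema3g and Gja5. These intervals cover counting error only, at 95% confidence. The order of the 3 clusters held within each of the 5 libraries. In the cluster led by Lhx6 the libraries gave 123.9, 174.4, 111.8, 144.8 and 127.7 CPM, and in the cluster led by Sema3g 62.8, 67.0, 63.6, 77.5 and 48.9 CPM. Prkg1 was at 251.1 CPM in the Lhx6 cluster, 43.6 CPM in the Car4 cluster and 41.6 CPM in the Sema3g cluster, and at 727.4 CPM (695.5 to 760.4) in the remaining endothelial cluster (c22), which came mostly from Tg female 2 and had Npr1 at 41.3 CPM. Among fibroblasts, Npr1 was at 36.4 CPM in the cluster led by Dkk3, Cilp and Postn and at 3.63 to 12.2 CPM in the other 3 fibroblast clusters.

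Npr2, the receptor of the C-type peptide, was spread over more types. It was at 61.1 ± 5.33 CPM in endothelial, 59.2 ± 7.19 CPM in fibroblast, 53.7 ± 21.8 CPM in lymphatic endothelial and 50.9 ± 10.8 CPM in endocardial nuclei (n = 5 each), and these 4 ranges overlapped. Cardiomyocytes came next at 29.9 ± 3.61 CPM, with libraries at 28.7, 28.8, 36.4, 28.0 and 27.9 CPM. The cardiomyocyte values lay below all endocardial values and above all smooth muscle values. Cardiomyocyte Npr2 was 42.4% to 63.5% of the endothelial level, and endothelial markers there 0.508% to 1.25% of theirs. Pericytes had 2.06 CPM and macrophages 3.13 CPM. The ratio of Npr1 to Npr2 UMIs thus differed by type, at 1.42 ± 0.268 in endothelial nuclei and 0.161 ± 0.0283 in fibroblasts (n = 5 each). In cardiomyocytes, 19 Npr1 UMIs stood beside 1464 Npr2 UMIs. The antisense gene Gm12473 overlaps 9599 bases of Npr2, and whether reads were assigned by strand is not given in the sources used here.

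Npr3, the clearance receptor, was almost confined to endocardial nuclei among the 8 types. Endocardial levels were 1657, 1693, 966.1, 2013 and 2253 CPM, and 85.0% of all Npr3 UMIs came from this type. The next type, endothelial, had 13.7 CPM, so that the endocardial mean was 125.6 times higher. After thinning to 1000 UMIs, 60% of endocardial nuclei had an Npr3 UMI (69.6% without thinning), against 0.172% of macrophages, the lowest type, which serves as the background of free RNA. The summed endocardial markers in endothelial nuclei were 2.03% to 3.86% of their endocardial level, while Npr3 was 0.359% to 2.02% of its own. From endothelial nuclei down to macrophages, the ranges of every pair of neighbours in the order overlapped. Outside the 8 types, the 105 mesothelial nuclei had 439.4 CPM of Npr3 (376.3 to 509.9). The 2 libraries with over 20 mesothelial nuclei gave 240.7 and 700.5 CPM.

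Corin was highest in cardiomyocytes, where the 5 libraries gave 1310, 905.8, 624.2, 1167 and 1184 CPM. Of all Corin UMIs, 95.7% came from this type, and 57.6% of its nuclei had a UMI after thinning to 1000 UMIs (93.1% without).

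Corin was also found in smooth muscle and, at a lower level, in endocardial nuclei. Smooth muscle libraries gave 550.0, 317.8, 116.4, 353.5 and 239.6 CPM, and endocardial libraries 110.2, 34.1, 32.5, 53.3 and 61.2 CPM. Since cardiomyocytes hold much RNA, the sum of 8 cardiomyocyte markers (Ttn, Myh6 and others) was read beside it as a measure of their RNA in other nuclei. This sum in smooth muscle was 3.56% to 5.46% of its cardiomyocyte level, whereas Corin in smooth muscle was 18.6% to 42.0% of its own cardiomyocyte level. Corin stood above the marker share in 5 of 5 libraries in smooth muscle and in 5 of 5 in endocardium, where the shares were 3.76% to 8.41% for Corin and 2.32% to 4.32% for the markers. In fibroblasts, endothelial nuclei, lymphatic nuclei and macrophages Corin stood below the marker share in every library, and in pericytes in 4 of 5. In the 191 Schwann nuclei Corin was at 144.2 CPM, with libraries from 40.3 to 384.4 CPM and a cardiomyocyte marker sum of 2804 to 10141 CPM, and the part of these markers in that level was not tested.

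**Figure D1:**
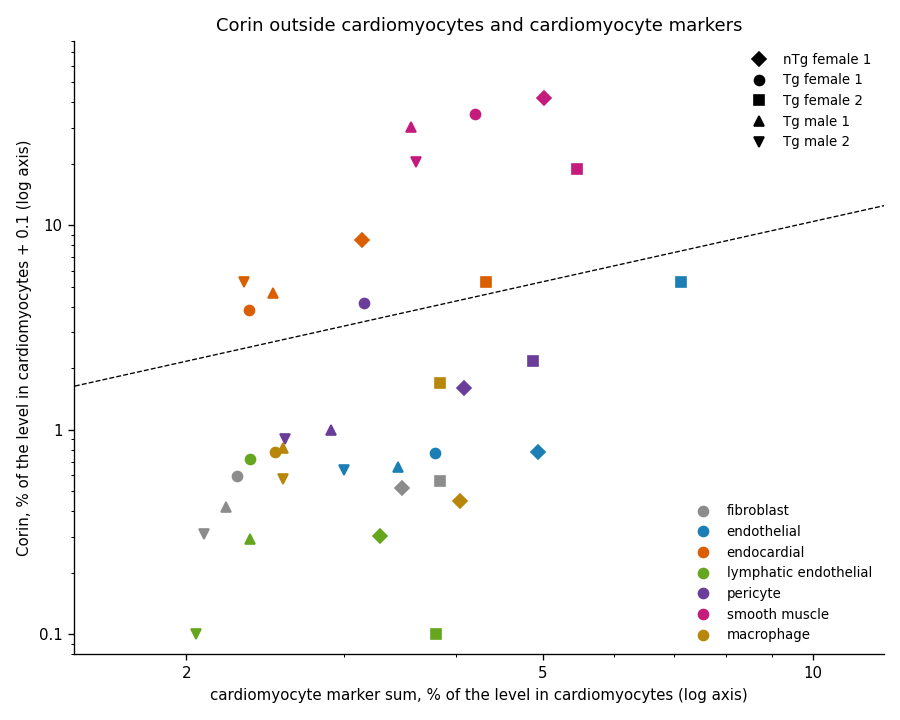
Corin outside cardiomyocytes, as a percentage of the Corin level in cardiomyocytes of the same library plus 0.1 (y, log axis), against the sum of 8 cardiomyocyte markers expressed the same way (x, log axis). Each point is 1 library (shape) and 1 cell type (colour), and the dashed line marks equal percentages: the 5 smooth muscle points lie at 18.6% to 42.0% on the y axis, all above the line, as do the 5 endocardial points.

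The antisense gene Gm20647 lies within Corin and overlaps 51695 bases of it. Its pattern was the most similar to that of Corin among 13814 genes, with a Pearson r of 0.962 over the 40 sums of 8 types and 5 libraries. Dmd, the dystrophin gene, followed Zfp612 (0.932) at 0.914. These correlations describe sums that share libraries and cell types and are not tests, and without knowledge of the strand setting, reads of Corin and Gm20647 cannot be told apart.

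The soluble cyclase genes were highest in the mural cells, pericytes and smooth muscle, and close to 0 in cardiomyocytes. Gucy1a1 was at 654.9 ± 78.3 CPM in smooth muscle and 579.6 ± 37.3 CPM in pericytes, whose ranges overlapped. Endocardial nuclei followed at 84.7 ± 13.5 CPM, with no overlap. Gucy1b1 was at 703.7 ± 54.1 CPM in pericytes, above smooth muscle at 302.4 ± 34.2 CPM in all 5 libraries without overlap. Gucy1a2 was at 1417.5 ± 241.1 CPM in pericytes and 479.5 ± 72.5 CPM in smooth muscle, again without overlap. In cardiomyocytes the means were 1.20 CPM for Gucy1a1, 2.32 CPM for Gucy1a2 and 1.11 CPM for Gucy1b1, from 60, 107 and 52 UMIs in 6176 nuclei. The summed pericyte markers in cardiomyocytes were 2.26% to 3.61% of their pericyte level, and Gucy1b1 was 0.0608% to 0.259% of its own.

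**Figure D2:**
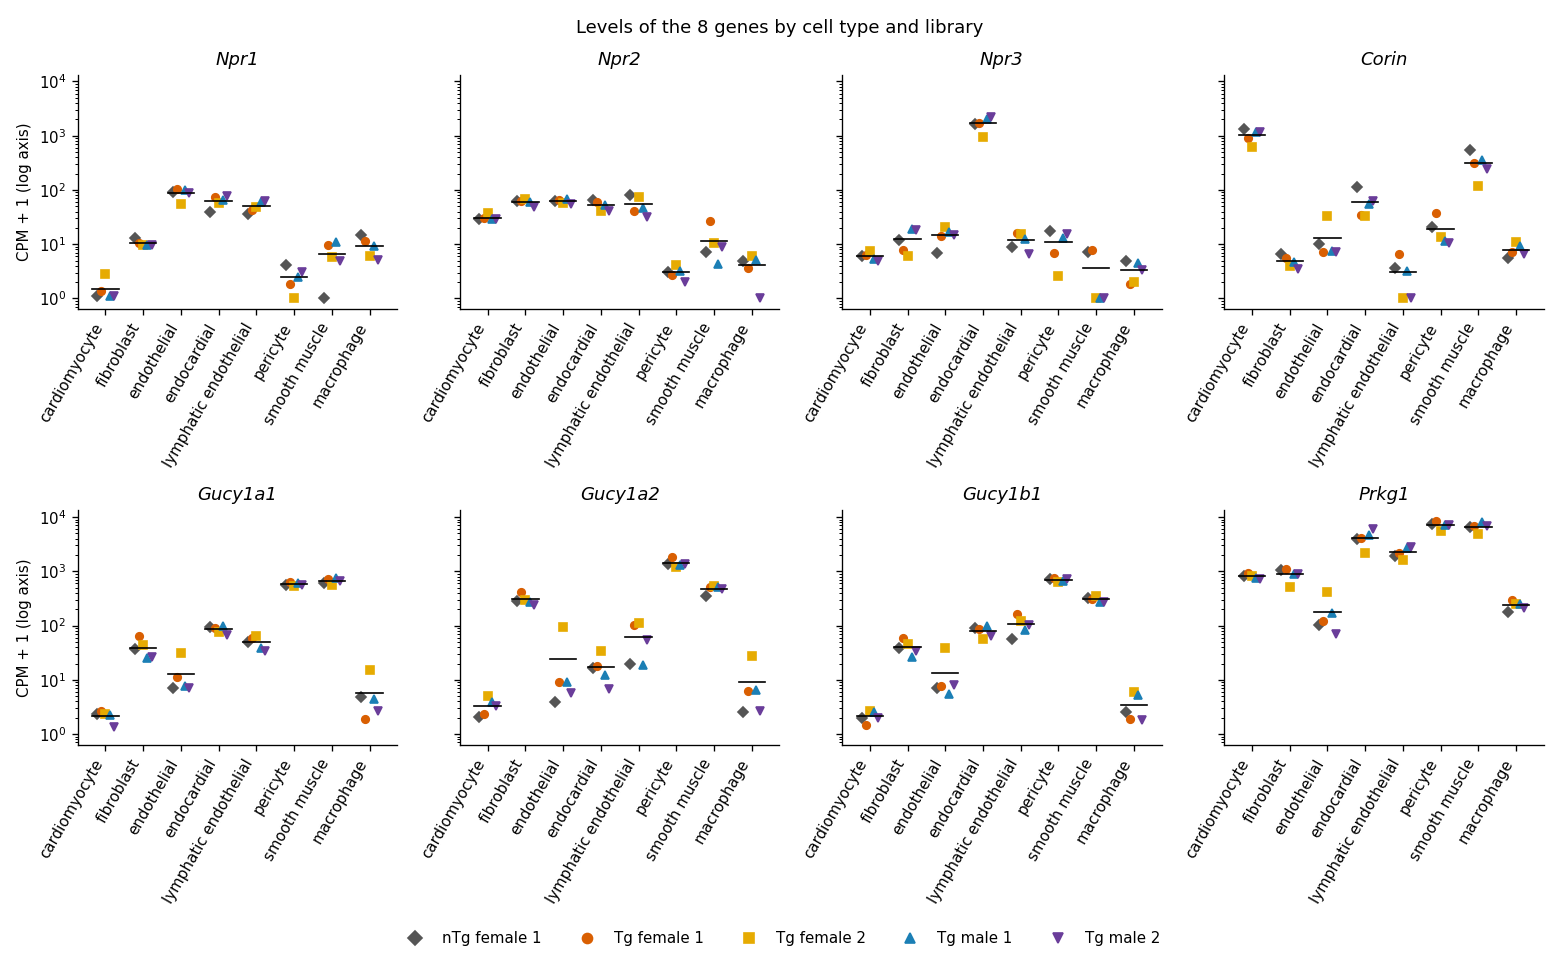
Level of each of the 8 genes (y, CPM + 1 on a log axis) in 8 cell types (x), with 1 point per library and a line at the mean of 5 libraries. Npr3 stands at 966.1 to 2253 CPM in endocardial nuclei and at a mean of 13.7 CPM or less in the other 7 types, while the 3 cyclase genes peak in pericytes or smooth muscle.

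The RNA level of each alpha subunit gene relative to the beta subunit gene differed between types. The UMI ratio of Gucy1a1 to Gucy1b1 was 2.20 ± 0.459 in smooth muscle (libraries from 1.58 to 2.75) and 0.827 ± 0.0703 in pericytes (0.756 to 0.931), so the 2 mural types did not overlap. It was 0.944 ± 0.105 in fibroblasts and 1.1 ± 0.132 in endocardium. The ratio of Gucy1a2 to Gucy1b1 was highest in fibroblasts, at 7.89 ± 1.70 (6.39 to 10.8), against 2.01 ± 0.216 in pericytes, 1.60 ± 0.309 in smooth muscle and 0.233 ± 0.201 in endocardium (n = 5 each). Fibroblasts, at 301.7 ± 68.9 CPM, held 54.7% of all Gucy1a2 UMIs, and pericytes, with the higher level, 36.5%. Endocardial nuclei were at the other end, with 335 Gucy1a1 UMIs and 58 Gucy1a2 UMIs. Such ratios carry the different lengths of the genes, and the comparison is of 1 ratio between types.

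**Figure D3:**
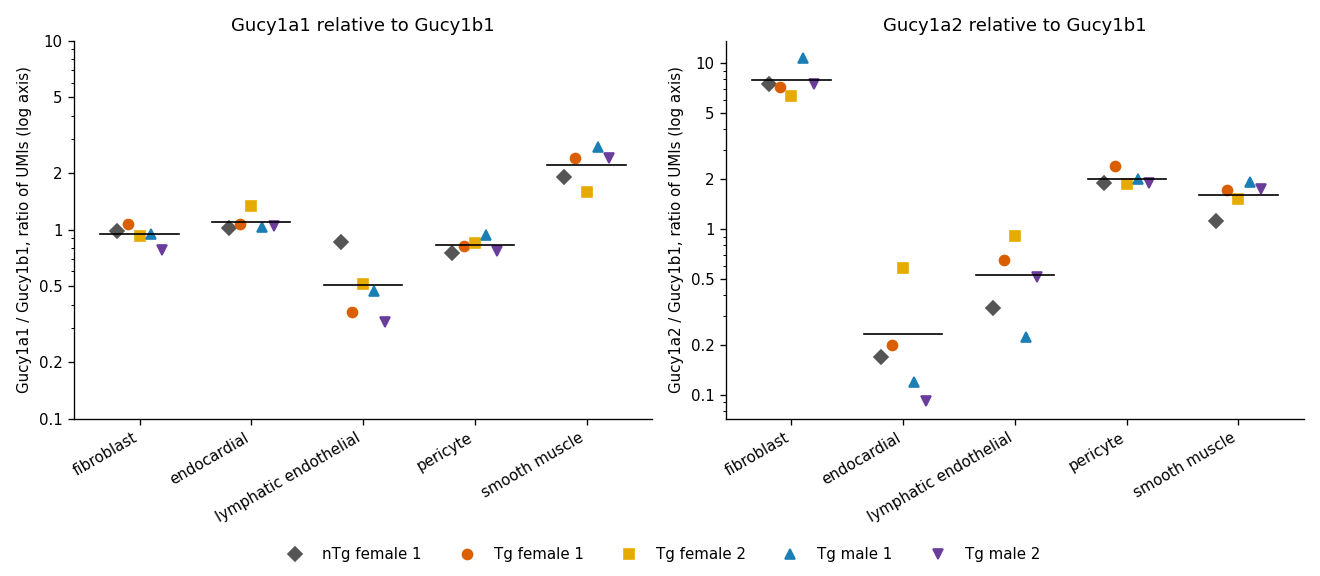
Ratio of UMIs of each alpha subunit gene to the beta subunit gene Gucy1b1 (y, log axis) in 5 cell types (x), with 1 point per library and a line at the mean. Gucy1a1 relative to Gucy1b1 is highest in smooth muscle (1.58 to 2.75), and Gucy1a2 relative to Gucy1b1 is highest in fibroblasts (6.39 to 10.8).

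Gucy1a1 and Gucy1b1 were each the gene most similar to the other among the 13814 genes, with a Pearson r of 0.972 over the 40 sums. How often they occurred in the same nuclei was read per type, with the nuclei of all libraries pooled. Of fibroblasts thinned to 1000 UMIs, 9.38% of the 469 with a Gucy1b1 UMI also had a Gucy1a1 UMI, against 3.38% of those without. In endocardial nuclei the shares were 20.7% and 7.35%, in pericytes 43.8% and 38.2%, and in smooth muscle 48.1% and 41.0%. In endothelial nuclei they were 9.09% and 0.705%, from 4 nuclei with both. In lymphatic endothelium the order was the reverse, at 2.9% and 4.79%, from 2 nuclei with both. The libraries of a type were not always alike. In endocardium Tg male 2 had 0 nuclei with both among 13 with Gucy1b1. In smooth muscle Tg male 1, unlike the other libraries, had the reverse order, at 41.2% and 51.4%. Among fibroblasts the gap was smallest in nTg female 1, at 4.23% and 3.32%. For Gucy1a2 in fibroblasts the shares were 24.9% and 22.7%. Nuclei of 1 library are not replicates, and these shares are given without a test.

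Prkg1 was found in all 8 types, at 7093 ± 1080 CPM in pericytes and 6701 ± 1155 CPM in smooth muscle (n = 5 each). Endocardial nuclei had 4169 ± 1389 CPM and lymphatic endothelial nuclei 2261 ± 527.5 CPM, and each neighbouring pair down to this point overlapped. Fibroblasts (894.7 ± 233.9 CPM) and cardiomyocytes (811.3 ± 86.8 CPM) overlapped and lay below the lymphatic range. Macrophages had 236.0 CPM and endothelial nuclei 174.0 CPM. In cardiomyocytes 45.4% of thinned nuclei had a Prkg1 UMI, close to the 44.2% of fibroblasts, against 99.1% of pericytes and 6.25% of endothelial nuclei. Prkg1 in cardiomyocytes was 10.2% to 15.1% of its pericyte level, above the 2.26% to 3.61% of the pericyte markers. Cstf2t, an intronless gene nested in Prkg1 on the opposite strand, was the most similar gene (r = 0.908), with the same limit on strand as for Corin.

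The endothelial cluster c22 moved the values of most members. It held 396 nuclei, of which 327 came from Tg female 2, with a median depth 2.08 times that of its libraries. Endothelial Gucy1a2 was 2.97, 8.01, 91.99, 7.97 and 4.67 CPM, and without this cluster 2.70, 3.91, 2.15, 2.96 and 1.75 CPM. Endothelial Gucy1a1 in Tg female 2 went from 29.7 to 4.84 CPM, Gucy1b1 from 37.4 to 5.38 CPM, Corin from 32.4 to 9.14 CPM, Npr3 from 19.6 to 5.92 CPM and Prkg1 from 409.2 to 35.5 CPM. In the same endothelial nuclei of Tg female 2, the summed fibroblast markers were 2098 CPM, against 309.0 to 386.6 CPM in the other 4 libraries, and the pericyte markers 385.8 CPM against 55.2 to 103.2 CPM. The fibroblast markers of Tg female 2 were also the highest in macrophages, at 1294 CPM against 216.0 to 343.2 CPM in the other libraries. The same held in lymphatic endothelium, at 898.0 CPM against 166.2 to 253.5 CPM, but not in cardiomyocytes or pericytes. The excess of these markers was thus not particular to endothelial nuclei. The part of the nuclei of c22 in the endothelial values was not tested. Npr2 was little touched (57.2 and 60.2 CPM).

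Other genes of the pathway, from a list of 43, placed the steps before and after these members. Of the peptide genes, Nppb was highest in cardiomyocytes (87.7 ± 48.2 CPM), and Nppc was at most at a mean of 1.69 CPM in any type. Nppa was at 53.2 ± 29.6 CPM in cardiomyocytes and at 24.2 to 51.2 CPM in the other 7 types, and the ranges over libraries overlapped. Mme, the peptidase neprilysin, was highest in fibroblasts (118.4 ± 38.8 CPM). Nos3, the endothelial nitric oxide synthase, was at 376.1 ± 108.3 CPM in endocardial and 183.3 ± 41.3 CPM in endothelial nuclei. The cGMP phosphodiesterase Pde5a was highest in smooth muscle (232.9 ± 38.4 CPM), followed by pericytes (159.3 ± 37.2 CPM), and Pde3a was highest in smooth muscle (2030 ± 403.5 CPM). Pde9a led in endocardium (60.4 ± 10.8 CPM). Among the kinase and its partners, Mrvi1, a PKG substrate at the calcium store, was at 850.9 CPM in smooth muscle and 800.2 CPM in pericytes, while the potassium channel gene Kcnma1 was at 1053 CPM in smooth muscle and 45.0 CPM in endocardium, the next type. Prkg2 was highest in smooth muscle at 69.9 CPM.

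Sex was compared between the 2 libraries labelled Tg female and the 2 labelled Tg male, in each of the 8 types, with the edgeR quasi-likelihood test over all genes and Benjamini-Hochberg adjustment. The labels do not say that libraries of a group came from separate animals, so p-values measure only the spread between these libraries. A single member passed the test in a single type. This was Npr3 in fibroblasts, where 68 of 15386 genes, 0.442%, were called. Npr3 was at 6.97 and 4.98 CPM in Tg female 1 and 2 and at 18.5 and 17.2 CPM in Tg male 1 and 2, with no overlap. On the log2 scale it fell by 1.64 in female libraries (SE 0.26, adjusted p = 0.0494). The library labelled nTg female 1 lay between, at 11.2 CPM. The adjusted p was 0.357 when that library was added to the female arm without a genotype term.

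The fibroblast difference in Npr3 was found in each of the 4 fibroblast clusters. In the cluster led by Lvrn and Acss3 (c2), where Npr3 was highest, the 4 libraries labelled Tg gave 11.5, 7.83, 25.1 and 23.8 CPM. In the cluster led by Gfpt2 and Pi16 (c0) they gave 4.77, 4.15, 10.2 and 7.94 CPM, in that led by Kcnip1 (c1) 7.04, 4.51, 13.6 and 10.5 CPM, and in that led by Dkk3 (c3) 3.77, 7.34, 11.6 and 12.6 CPM. The make-up of the type also moved with the sex label: cluster c2 made up 23.4% and 6.36% of fibroblasts in the Tg female libraries and 47.4% and 51.5% in the Tg male ones. With the 4 clusters given equal weight the log2 difference was -1.07, without a test. The levels are low, with 409 Npr3 UMIs in fibroblasts of all 5 libraries. Of these, 249 were in c2, 70 in c0, 68 in c1 and 22 in c3, so the order in c3 rests on few UMIs. Clusters of a type are parts of the same libraries and not separate observations. The share of all genes with the same order in every cluster was not computed.

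Gucy1a1 and Gucy1b1 in fibroblasts had libraries without overlap in the other direction and did not pass the test. Gucy1a1 was at 62.3 and 42.1 CPM in Tg females and at 24.3 and 25.4 CPM in Tg males, a log2 difference of 0.99 (SE 0.22, edgeR adjusted p = 0.142). Gucy1b1 was at 58.1 and 45.3 CPM against 25.5 and 32.5 CPM, a log2 difference of 0.75 (SE 0.21, edgeR adjusted p = 0.22). Gucy1a1 had the females above the males in each of the 4 clusters, most in c2 with 117.1 and 123.3 CPM against 30.6 and 35.7 CPM. Gucy1b1 did so in 3 clusters and overlapped in c3, at 55.6 and 32.3 CPM against 34.7 and 37.7 CPM. The nTg female library was in between, at 36.6 CPM for Gucy1a1 and 37.2 CPM for Gucy1b1. In fibroblasts 5 of 8 members had sexes that did not overlap, and so did 42.0% of all genes tested there. The other types gave 2 of 8 members in endothelial nuclei (38.5% of all genes), 5 of 7 in cardiomyocytes (35.9%), 0 of 1 in macrophages (38.3%) and 2 of 6 in pericytes (35.2%). In endocardium they were 4 of 8 (36.9%), in lymphatic endothelium 5 of 6 (35.4%) and in smooth muscle 2 of 5 (33.1%). Without Tg female 2, edgeR gave adjusted p = 0.00742 for Gucy1a1 and 0.0391 for Gucy1b1. A fit without 1 female library leaves a lone female library that is assumed to vary like the males, and this one called 309 genes in all, against 68.

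**Figure D4:**
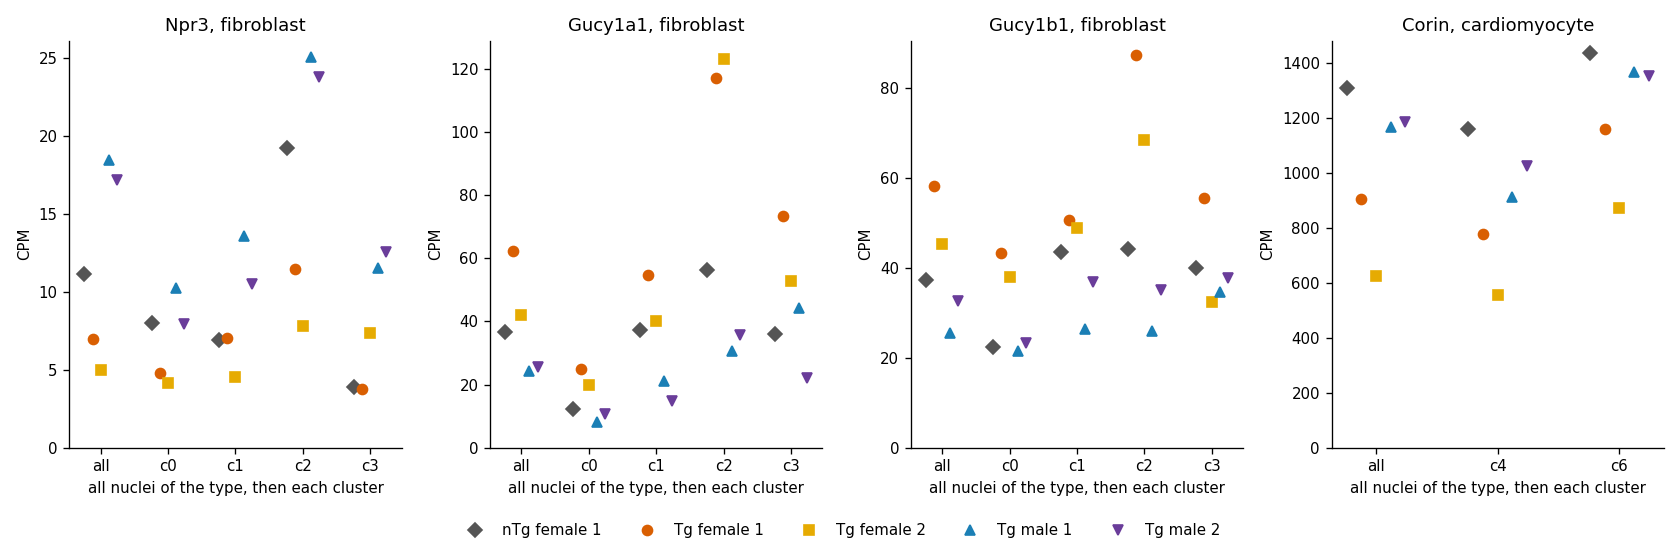
CPM of Npr3, Gucy1a1 and Gucy1b1 in fibroblasts and of Corin in cardiomyocytes (y, from 0), over all nuclei of the type and then in each of its clusters (x), with 1 point per library. Npr3 is at 4.98 and 6.97 CPM in the Tg female libraries and at 17.2 and 18.5 CPM in the Tg male ones, and within each cluster the Tg female points lie below the Tg male points.

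Corin in cardiomyocytes was at 905.8 and 624.2 CPM in Tg females and 1167 and 1184 CPM in Tg males, without overlap. The log2 difference was -0.66 (SE 0.25, edgeR adjusted p = 0.671), and 0.0267% of all genes were called in cardiomyocytes. The female values were below the male ones in both cardiomyocyte clusters, with 777.7 and 555.2 CPM against 912.4 and 1026 CPM in the cluster with Ankrd1 among its leading genes (c4), and 1160 and 874.2 CPM against 1367 and 1354 CPM in that led by Rgs13 (c6). Cluster c4, with the lower Corin, made up 64.9% and 77.4% of cardiomyocytes in the Tg female libraries and 43.3% and 48.9% in the Tg male ones. The library labelled nTg female 1 had 1310 CPM, above all 4, so the female label as a whole did not stand below the male. Without Tg female 1, edgeR gave a log2 difference of -0.99 (adjusted p = 0.0225) between the lone Tg female 2 and the males, in a fit that called 314 genes in all, against 4. Npr2 and Prkg1 in cardiomyocytes had log2 differences of 0.17 and 0.23 with adjusted p of 0.943 and 0.925 in edgeR. The summed cardiomyocyte markers in these nuclei were lowest in Tg female 2, as Corin was. They were at 41954 CPM there, against 46910 to 52855 CPM in the other libraries, and their part in the Corin difference was not tested.

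Npr3 in endocardium, its main site, was at 1693 and 966.1 CPM in Tg females and 2013 and 2253 CPM in Tg males (log2 difference -0.73, SE 0.32, edgeR adjusted p = 0.681). Here 0.135% of all genes were called and 0 of 8 members, 3 of them with an unadjusted p under 0.05 in edgeR. Of all 9651 genes there, 703 had such a p. Prkg1 in endocardium was at 4032 and 2151 CPM against 4734 and 5975 CPM (log2 difference -0.85, SE 0.38, adjusted p = 0.707 in edgeR). Tg female 2, the lowest library for both genes, also had the lowest sum of endocardial markers in these nuclei. That sum was 4334 CPM, against 5611 to 6913 CPM in the other libraries, and its part in these differences was not tested. Without Tg female 1, endocardial Npr3 and Prkg1 passed in edgeR. That fit has a lone female library, assumed to vary like the males, and it called far more genes in all than the main fit. In lymphatic endothelium Gucy1a2 was at 103.3 and 110.0 CPM in Tg females and 18.0 and 52.6 CPM in Tg males (log2 difference 1.61, SE 0.41, adjusted p = 0.241 in edgeR), in a type where 0.141% of genes were called. Without Tg male 2, and likewise without Tg female 1, lymphatic Gucy1a2 passed in edgeR. Each of these fits leaves a lone library in an arm, and each called more genes in all than the main fit. The nTg female library had 18.7 CPM there, near the lower male value.

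In the mural cells the leading genes did not pass the test. Pericyte Gucy1b1 was at 765.9 and 639.1 CPM in Tg females and 655.3 and 726.6 CPM in Tg males (log2 difference 0.03, SE 0.21, adjusted p = 0.994 in edgeR), and pericyte Gucy1a1 had a log2 difference of 0.01 (SE 0.20). Smooth muscle Gucy1a1 had a log2 difference of -0.06 (SE 0.29) and Gucy1b1 one of 0.32 (SE 0.30). Gucy1a2 had log2 differences of 0.17 (SE 0.25) in pericytes and 0.14 (SE 0.29) in smooth muscle. The test called 0.117% of genes in pericytes, 0.282% in smooth muscle, 0.0452% in endothelial nuclei and 0.181% in macrophages, and 0 members in these 4 types. In cardiomyocytes, endocardium and lymphatic endothelium 0 members were called as well. In edgeR an unadjusted p under 0.05 went to 1, 3 and 3 members there, and to 1063 of 14998, 703 of 9651 and 451 of 7100 genes. DESeq2 called 0 members in each of these 7 types, which covers only the members it tested. It tested 2 members in lymphatic endothelium, 4 each in pericytes and macrophages, and 5 in cardiomyocytes. Endocardium had 7 tested, and endothelial nuclei and smooth muscle 8 each. Its calls among all genes were 14 (lymphatic endothelial, 1940 tested), 24 (pericyte, 2701), 47 (macrophage, 10994), 30 (endocardial, 6256) and 4 (smooth muscle, 17161). The unadjusted p in edgeR was under 0.05 for 0 members in smooth muscle and macrophages. In pericytes it was so for 2 members (Npr3 and Corin), beside 681 of all 10278 genes. In endothelial nuclei it was so for 2 (Gucy1a1 and Gucy1a2), beside 911 of all 13281 genes. Those 2 endothelial differences move with the cluster of Tg female 2: without it the log2 difference of Gucy1a1 was 0.34 (adjusted p = 0.868) in place of 1.58. Fits with a lone female library made calls in pericytes: without Tg female 2, edgeR gave adjusted p = 0.00177 for Corin and 0.0293 for Gucy1a2 and called 245 genes in all, and without Tg female 1 it gave 0.0352 for Prkg1 and called 501 genes, against 12 with all 4 libraries. Prkg1 was the only member that passed the expression filter in macrophages.

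Of the 43 other pathway genes, 12 to 28 were tested per type, and 0 passed the edgeR test in any of the 8 types. At an unadjusted p under 0.05 in edgeR there were 31 of 176 tested pairs of gene and type. Of all genes, 1522 of 15386 had such a p in fibroblasts, 911 of 13281 in endothelial nuclei and 1063 of 14998 in cardiomyocytes. In macrophages they were 906 of 10501, in pericytes 681 of 10278 and in endocardium 703 of 9651. Lymphatic endothelium had 451 of 7100 and smooth muscle 244 of 4963. DESeq2 called Nppb and Mme in fibroblasts, Nppb in endothelial nuclei, and Nppb and Rgs2 in cardiomyocytes. In these types DESeq2 called 234 of 14787, 53 of 9762 and 95 of 14018 genes in all. The nearest to passing in edgeR was Nppb in fibroblasts, at a mean of 29.7 CPM in Tg females and 3.17 CPM in Tg males (log2 difference 3.08, SE 0.53, adjusted p = 0.0614 in edgeR). In cardiomyocytes, its main site, Nppb was at 139.3 and 49.2 CPM (log2 difference 1.46, adjusted p = 0.268). Nppb was thus higher in the Tg female libraries both inside and outside its main site, and the part of free RNA in this was not tested. Mme in fibroblasts was at a mean of 79.1 CPM in Tg females and 152.8 CPM in Tg males (log2 difference -1.03, SE 0.21, adjusted p = 0.101 in edgeR).

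The library labelled nTg female 1 was set beside the 4 labelled Tg without a test, since it is a single library and its Ccna2 goes against its label. A level was counted as apart if it lay outside the range of the 4 and at least 2-fold from their mean, on log2(CPM + 1). Of 47 pairs of gene and type with at least 10 CPM, 6 were apart. In endothelial nuclei these were Npr3, Gucy1a1 and Gucy1a2, where 1.88% of all genes were apart. Npr3 was at 5.95 CPM (3.53 to 9.40) against 13.1 to 19.6 CPM, and the 2 cyclase genes were at 5.95 CPM against 6.0 to 29.7 CPM and 2.97 CPM against 4.67 to 91.99 CPM, where the Tg mean moves with the cluster of Tg female 2. Without that cluster, Npr3 in nTg female 1, at 6.08 CPM, lay inside the range of the other 4 libraries, 5.92 to 15.4 CPM. Corin was apart in endocardium, at 110.2 CPM (87.2 to 137.3) against 32.5 to 61.2 CPM, in a type where 4.51% of genes were apart. Corin was also apart in smooth muscle, at 550.0 CPM (472.4 to 636.8) against 116.4 to 353.5 CPM, where 13.4% of genes were apart. Gucy1b1 was apart in lymphatic endothelium, at 56.0 CPM (34.7 to 85.7) against 81.1 to 159.7 CPM, where 9.97% of genes were apart. In cardiomyocytes Corin was at 1310 CPM (1287 to 1334) against 624.2 to 1184 CPM, which is outside the range but less than 2-fold from the mean (log2 difference 0.43). In the other 4 types 0 members were apart, where 0.504% (fibroblast), 0.793% (cardiomyocyte), 2.63% (macrophage) and 3.29% (pericyte) of all genes were. Outside the range by any size were 1 of 7 members considered in fibroblasts (31.9% of all genes), 3 of 8 in endothelial nuclei (33.7%), 1 of 3 in cardiomyocytes (32.8%) and 2 of 2 in macrophages (34.6%). They were 1 of 6 in pericytes (38.2%), 3 of 8 in endocardium (37.8%), 3 of 7 in lymphatic endothelium (39.7%) and 2 of 6 in smooth muscle (39.7%). In cardiomyocytes, smooth muscle and endocardium alike, the highest Corin level was that of the library labelled nTg female 1.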

How the data were processed

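The authors deposited UMI counts per gene and barcode from single-nucleus libraries, made with Cell Ranger 7.0.0 per the file headers and the mm10 build per the submitters' processing notes. Whether introns or strand were used in counting is not given in the sources used here. Of 8 libraries, 5 had a matrix that matched its barcode list. Barcodes were kept from 200 genes upward and below 5% mitochondrial UMIs, and predicted doublets (expected 6%, called 5.16% to 9.68%) were removed. Clustering in scanpy 1.11.5 used 2000 variable genes, 30 principal components, 15 neighbours and resolution 1. A cluster was named from marker lists if at least 3 markers were raised and its best list led the next by 0.5 (log2), unless its 10 leading genes held at least 3 cell cycle genes or more markers of another list than of its own.

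Counts were summed per library and type and tested with edgeR 4.0.16 (filterByExpr, TMM, quasi-likelihood, Benjamini-Hochberg threshold 0.05) in R 4.3.3, with DESeq2 1.42.0 as an alternative. On simulated counts with 200 changed genes, the edgeR steps recovered 86.1% of the 4-fold and 45.9% of the 2-fold changes for the fibroblast comparison over 15386 genes, with 17.4% of calls false. Recovery was lower in the other types, at 53.5% and 1.98% in endothelial nuclei (13281 genes), 68.8% and 7.95% in smooth muscle (4963 genes), and 74.5% to 84.7% and 25% to 38.2% in the other 5. Median depth was 2140.5 to 3053 UMIs per nucleus, and intervals cover counting error only. All 8 genes are named whatever their values, other pathway genes if called or among 11 always named, and similar genes as the 3 with the highest correlation of log2(CPM + 1). The members and lists were chosen with earlier results of these data known.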

Additional observations from a re-analysis of the deposited data

Results flagged for a closer look

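Among the 4 libraries labelled Tg, 44 pairs of gene and cell type were examined for a library far from the other 3, and 5 were found; chance gives about 1 in 20. Npr2 in cardiomyocytes was highest in Tg female 2 at 36.36 CPM, against 27.88 to 28.81 CPM in the others. In endothelial nuclei Tg female 2 was highest for Corin (32.35 CPM, others 6.09 to 6.54), Gucy1a2 (91.99 CPM, others 4.67 to 8.01) and Gucy1b1 (37.42 CPM, others 4.55 to 7.0). Those 3 values come with the endothelial cluster that held 327 nuclei of this library, without which they were 9.14, 2.15 and 5.38 CPM. Corin in pericytes was highest in Tg female 1 at 36.87 CPM, against 9.46 to 12.9 CPM.

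In 3 genes the order of the sexes, without overlap, was opposite in 2 cell types, and the difference between the types was not tested. For each gene the 2 types with the largest opposite differences were taken. Per type, 33.1% to 42.0% of all genes had sexes that did not overlap. The share of all genes with opposite orders was not computed, so the count of 3 says nothing particular to the members. Npr3 was higher in the Tg female libraries in cardiomyocytes (log2 0.46) and lower in fibroblasts (-1.64), a gap of 2.11. Cardiomyocyte Npr3 was low, at 3.94 to 6.45 CPM over the 5 libraries. It was 0.175% to 0.667% of its endocardial level, below the 1.15% to 1.93% of the endocardial markers there. The part of free RNA in it was not tested. For Corin the log2 differences were 1.42 in pericytes and -0.82 in endocardium, a gap of 2.24. The pericyte value rests mostly on the outlying Tg female 1 at 36.87 CPM. Tg female 2 was at 12.88 CPM there, close to the Tg male libraries at 9.46 and 10.53 CPM. For Prkg1 the log2 differences were 0.23 in cardiomyocytes and -0.85 in endocardium, a gap of 1.07. With equal weight of the 2 cardiomyocyte clusters the sexes overlapped for Prkg1 (log2 0.14), and the log2 difference of Npr3 in cardiomyocytes was 0.21. Cluster c4, with more Prkg1, made up 64.9% and 77.4% of cardiomyocytes in the Tg female libraries and 43.3% and 48.9% in the Tg male ones. Only Npr3 in fibroblasts passed the test on its own.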

How the results depend on the processing

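The cell type with the highest level stayed the same for 8 of 8 members at resolution 0.5, with doublets kept, with a mean per nucleus and without each of the 5 libraries in turn. The log2 difference of Npr3 in fibroblasts was -1.64. With all 5 libraries and no genotype term it was -1.26 (edgeR adjusted p = 0.357), and with equal weight of the clusters, chosen after seeing the data, -1.07 without a test. Without each library in turn it ranged from -1.97 to -1.43, with an adjusted p of 0.00368 to 0.028 in edgeR. The replicate numbers did not pair the samples (correlations of -0.0278 to 0.0843), and with the number as a replicate block the difference was -1.66 (edgeR adjusted p = 0.0132). DESeq2 gave -1.67 (adjusted p = 0.00307). Corin in endocardium went from -0.82 to 0.034 (edgeR adjusted p = 0.998) with all 5 libraries and no genotype term. With no filter on low counts, 3 members were called in fibroblasts (736 of all 23871 genes), 5 in endothelial nuclei (740 of 22627), 1 in macrophages (389 of 19998) and 1 in lymphatic endothelium (74 of 17540), and with no genotype term 0 in fibroblasts. Without each library in turn, the count of members called moved in fibroblasts, endothelial nuclei, cardiomyocytes, pericytes, endocardium and lymphatic endothelium. The count of all genes called moved in these types as well. Each of these fits leaves a lone library in an arm, assumed to vary like the other arm. Their counts of members called therefore say nothing particular to the members. The count of all genes called in fibroblasts, 68, ran from 19 (no genotype term) to 1019 (without Tg female 1), and in endothelial nuclei, 6, from 0 (without Tg male 1) to 3058 (without Tg female 1). In cardiomyocytes 4 genes became 320 with the replicate block, in macrophages 19 became 7 to 389, in pericytes 12 became 6 to 501, in endocardium 13 became 5 to 176, in lymphatic endothelium 10 became 6 to 162, and in smooth muscle 14 became 4 (DESeq2) to 175. Pairs where nTg female 1 lay apart, 6 of 47, became 4 to 11 without single libraries labelled Tg and 12 of 48 against the libraries of the same sex label. A range over fewer libraries is never wider, for any gene. The share of all genes apart was not computed for these smaller sets, so their counts say nothing particular to the members. Endothelial Gucy1a2 in nTg female 1 was -2.88 on the log2 scale from the Tg mean, and -0.99 without Tg female 2. Of 16 shares of nuclei with a UMI, 14 moved with the depth of thinning, so the shares printed hold for 1000 UMIs only.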
